A study of Mus musculus with 23 samples.

Results

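The fragments described here are single-copy stretches of the mouse genome that carried methylation reads in every embryonic stem cell (ESC) library and few reads in both myoblasts and skeletal muscle. They lie between neighbouring CCCGGG sites on chromosomes 1 to 19, measure from 21 to under 2000 bp, and are outside CpG islands, their shores and annotated repeats in the authors' classes. Each had 10 or more scaled reads in all 4 ESC libraries. Its ESC mean was at least 4 times the myoblast mean plus 1 and at least 4 times the muscle mean plus 1. This rule found 157 members. The same rule without the first CGR8 library found 501, and 59 of the 157 kept a 4-fold difference after an adjustment for length described below. They come from 5380 eligible fragments, meaning those of the same class with every ESC library at 10 or more, out of 11131 single-copy fragments of that class and 173430 fragments in all. Of the eligible fragments, 750 met the condition for myoblasts and 883 the one for muscle. The members were thus selected on their ESC, myoblast and muscle values, so their levels in these 3 groups are given as a description, with no test.

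The study followed DNA methylation through myogenesis by sequencing fragments between methylated sites in 23 libraries of 9 groups. The ESC libraries came from 3 lines, CGR8 (129Sv, with a technical replicate), RD1 (129X1/SvJ) and E14Tg2 (129/Ola). The primary myoblasts, grown from C57BL/6J male muscle as cultures 21, 26 and 27, were proliferating at passage 8 to 10, and the same cultures were sampled as myotubes after 1, 2 and 4 days in differentiation medium. Cells at passage 0 came from cultures 26 and 27 only, and 1 library each came from never cultured C57BL/6J male precursors of uninjured muscle and of muscle 3 days after cardiotoxin (CTX) injury. Whole skeletal muscle of males gave 3 libraries, 1 from C57BL/6J and the other two from mixed 129Sv/C57BL/6J animals, and no ages are given here for any group. Strain and cell type change together between the ESC and the myogenic cells, so they cannot be told apart in any difference from ESC. Strain names are given as the labels have them. At a few fragments described below, libraries labelled C57BL/6J differed from each other, so these names are in doubt there. Whole muscle also holds cells other than myofibres. The labels do not say whether the cultures came from separate animals. The p-values below rest on a spread pooled over all groups with replicates, so they do not measure a spread between animals.

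In mammals, DNA methylation sits mostly on the cytosine of CpG pairs, where it is copied at each round of replication. It is lost when copying fails or when TET enzymes oxidise it. Most of the genome outside CpG islands is methylated in differentiated cells, and stretches that lose methylation in one lineage often lie at its regulatory elements. The assay, AIMS-seq, reads this through a pair of enzymes with the same site. SmaI first removes the unmethylated CCCGGG sites by a blunt cut. XmaI next opens those that methylation protected, giving overhangs that the adaptors need. A fragment is therefore read when the sites at both of its ends are methylated, and its read number is not a percentage of methylation. Levels below are the authors' scaled reads, which are raw counts times 1 factor per library.

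The sequences of a few members show what the assay measured. Apart from the Gm7027 fragment they were chosen after their values had been seen. All are from the NCBIM37 (mm9) reference, plus strand, with each CCCGGG site in capitals. The CpG at the centre of that site is the base pair whose methylation decides whether the fragment is read. In the mm9 reference, 100% of the single-copy fragments have this site at each end. The member upstream of Anxa8, at chr14:34896929-34897076 with its sites, is the shortest of the 157, and is shown because 2 further members adjoin it in a row:

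Anxa8 upstream fragment: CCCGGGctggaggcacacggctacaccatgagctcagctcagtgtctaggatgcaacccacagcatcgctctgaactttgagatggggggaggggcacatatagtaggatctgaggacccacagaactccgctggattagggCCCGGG

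The pair of sites that separate the 3 adjoining Anxa8 members lie at chr14:34897044-34897103 and chr14:34899015-34899074, and each window holds 60 bases:

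Anxa8 shared site 1: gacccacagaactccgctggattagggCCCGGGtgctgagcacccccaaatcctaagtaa
Anxa8 shared site 2: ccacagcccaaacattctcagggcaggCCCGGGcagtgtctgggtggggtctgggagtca

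Both ends of the member with the largest ratio are shown next, since one of them also ends a fragment just outside the threshold. The windows are chr7:119008839-119008898 and chr7:119009736-119009795:

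first site of the chromosome 7 fragment: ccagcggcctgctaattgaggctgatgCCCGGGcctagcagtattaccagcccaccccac
second site of the chromosome 7 fragment: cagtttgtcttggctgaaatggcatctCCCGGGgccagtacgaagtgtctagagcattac

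The site shared by a pair of adjoining members in an Nfix intron lies in chr8:87269467-87269526:

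Nfix shared site: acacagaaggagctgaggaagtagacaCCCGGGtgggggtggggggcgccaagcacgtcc

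The Gm7027 fragment, at chr7:108722510-108722765 with its sites, is the member of 300 bp or less among those in a promoter window. Gm7027 is annotated as a pseudogene, so reads of related copies cannot be told apart from its own:

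Gm7027 promoter fragment: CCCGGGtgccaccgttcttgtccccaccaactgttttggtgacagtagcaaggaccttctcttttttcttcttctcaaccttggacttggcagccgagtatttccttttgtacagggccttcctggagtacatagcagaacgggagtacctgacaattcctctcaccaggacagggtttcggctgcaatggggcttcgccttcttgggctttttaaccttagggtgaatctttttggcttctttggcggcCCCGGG

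The Slit3 intron member, chr11:35056195-35056489, is printed from cut to cut, so its end sites are incomplete. It is shown because its level before passaging was close to that of ESC:

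Slit3 intron fragment: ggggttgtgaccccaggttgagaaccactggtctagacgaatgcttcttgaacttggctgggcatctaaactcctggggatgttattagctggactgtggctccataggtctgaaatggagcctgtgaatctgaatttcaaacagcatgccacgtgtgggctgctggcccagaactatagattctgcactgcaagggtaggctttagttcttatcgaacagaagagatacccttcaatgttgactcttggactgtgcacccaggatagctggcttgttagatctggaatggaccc

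The libraries held 6237851 to 14696855 reads. The ESC means of the members ran from 16.8 to 4393 scaled reads with a median of 174.5, against a median of 320.6 over all eligible fragments. The ratio of the ESC mean to the larger of the myoblast and muscle means, each plus 1, had a median of 5.52 and an upper quartile of 11.4. It was between 4 and 6 in 94 members, 16 or more in 32 and 64 or more in 14. Values lay densely around the threshold. Just inside were members near Sulf2 (4.02), near Odz2 (4.03) and near 2810405K02Rik (4.04), and just outside were fragments near Gpat2 (4.00 when rounded), in Prkce (3.98) and near Galntl4 (3.98).

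**Figure D1:**
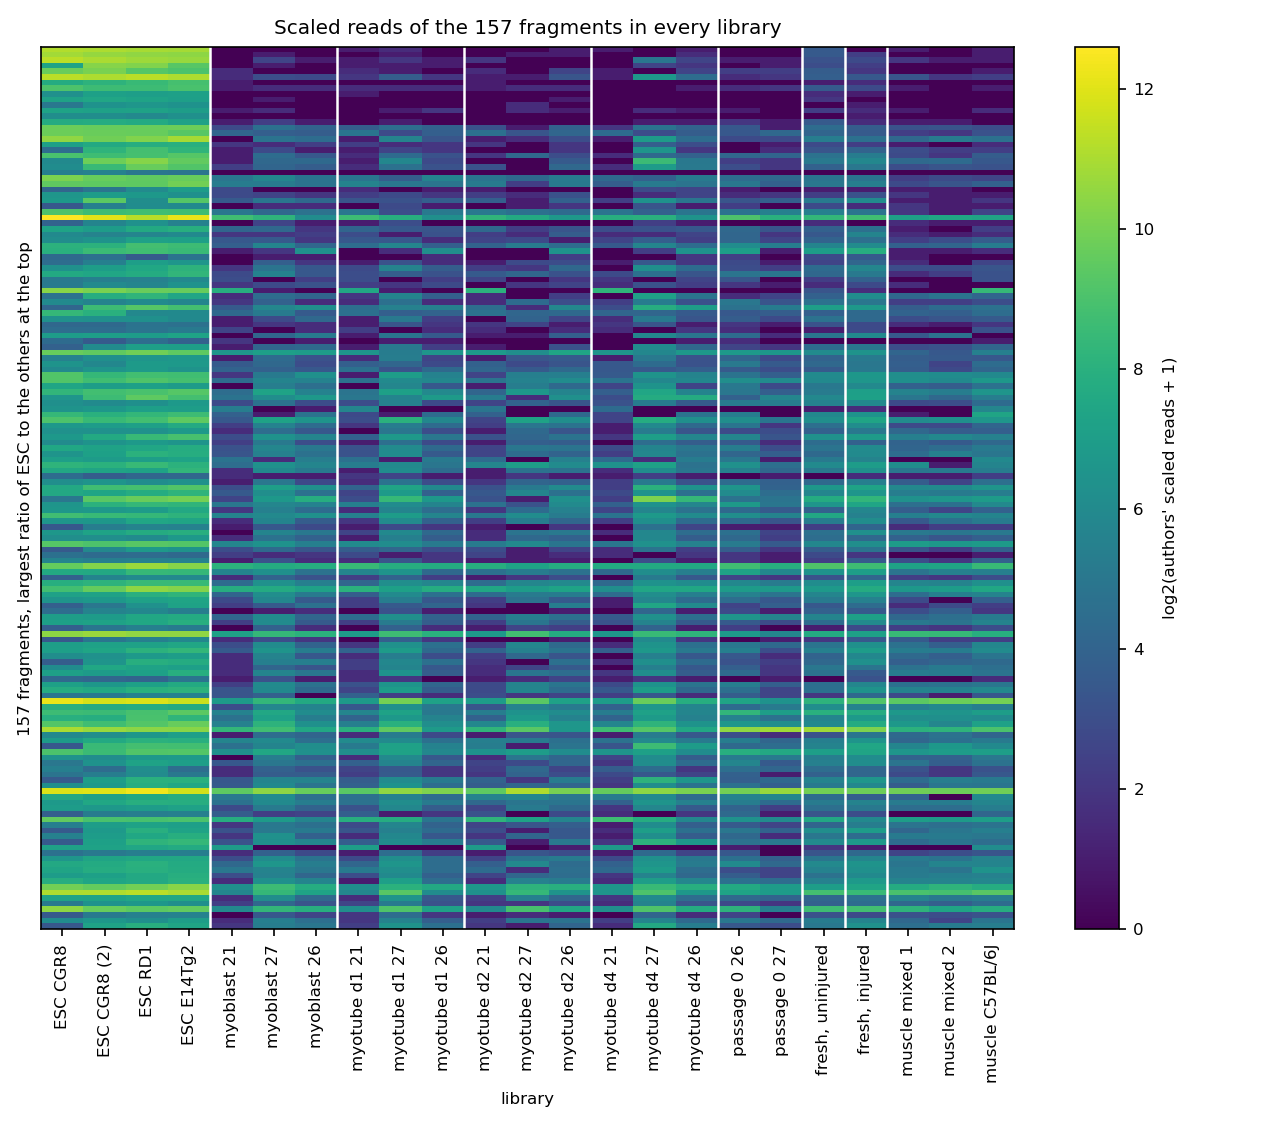
Each of the 157 rows is a member and each column a library, coloured by log2 of the authors' scaled reads plus 1, with the largest ratio of ESC to myoblast and muscle at the top. The uppermost 32 rows, with ratios of 16 or more, are mostly dark in all groups other than ESC. The lower rows are paler in the myoblasts and the day 1 and day 4 myotubes of culture 27, and in the injured fresh precursors.

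The largest differences left almost no reads in myogenic cells. The top member, chr7:119008869-119009765, lies between genes, 85.8 kb upstream of the start of Galntl4, which encodes an enzyme of mucin-type O-glycosylation. Its scaled reads were 2278 and 2114 in the CGR8 libraries, 1982 in RD1 and 1942 in E14Tg2. They were 0 in all 3 myoblast libraries and 0 to 2 in the 9 myotube libraries. Both passage 0 libraries and the injured fresh library were at 0, the uninjured fresh library was at 11, and muscle was at 1, 0 and 1. No library outside ESC came near the ESC level.

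A member at chr2:172689409-172690983, 75.4 kb from the start of the BMP ligand gene Bmp7, contains the annotated miRNA gene AL845460.1 within it. It had 1862, 1585, 1467 and 1401 scaled reads in CGR8, its technical replicate, RD1 and E14Tg2. Over myoblasts and myotubes it stayed at 0 to 2, passage 0 cells were at 0 in both libraries, and muscle was at 0, 0 and 1. The uninjured fresh library had 11 and the injured 4. The ESC and myogenic libraries did not overlap.

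Several of these members lie at the starts of inner, shorter transcripts rather than at a gene's first start. One in the tetratricopeptide repeat gene Ttc34, chr4:154234213-154235311, overlaps its coding sequence and had 2561, 2066, 1756 and 1640 scaled reads in the ESC libraries. Myoblasts of cultures 21, 27 and 26 were at 0, 5 and 1, and muscle at 3, 1 and 1. Day 4 myotubes of culture 27 stood at 30, above the 0 and 5 of cultures 21 and 26. Another, in Pex6, an ATPase of peroxisomal protein import, is at chr17:46857593-46858688. It had 158 and 1267 scaled reads in the CGR8 library and its technical replicate, 1175 in RD1 and 635 in E14Tg2. It stood at 0, 1 and 0 in myoblasts and at 0 in all of muscle. The first CGR8 library was thus the lowest of the ESC libraries for Pex6, and still above every myogenic library.

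Nfix, a nuclear factor I transcription factor known for its role in fetal myogenesis, held 3 members. The first, chr8:87245709-87247079, lies inside the Nfix gene body and in the promoter window of G430095P16Rik on the opposite strand. It had 848, 1069, 617 and 527 scaled reads in the ESC libraries and 0 to 5 in all 12 myoblast and myotube libraries. Passage 0 cells were at 4 and 4, the uninjured fresh library at 12, the injured at 3 and muscle at 0, 0 and 1. The other members in Nfix are the adjoining intron fragments chr8:87268374-87269496 and chr8:87269497-87270177. They had 15 to 81 and 17 to 123 scaled reads in ESC, and 0 to 7 in any other library. All 3 were low throughout the myogenic groups, with ratios of 459, 16 and 19.6.

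Anxa8, which encodes a calcium-dependent phospholipid-binding annexin, had 3 adjoining members that run from upstream of it to its start. The 142 bp fragment upstream had 218, 224, 211 and 149 scaled reads in the ESC libraries and 0 to 4 in myoblasts and myotubes. The next, chr14:34897074-34899044, had 889, 817, 858 and 861, and was at 6, 24 and 15 in myoblasts of cultures 21, 27 and 26. The one over its start and first exon, chr14:34899045-34900073, had 143, 204, 228 and 246 in ESC and 3, 2 and 4 in the same myoblasts. Muscle stood at 0 or 1, at 7 to 9 and at 0 to 2 in these 3 fragments. A read of each needs methylation at its own end sites, and both shared sites printed above end a pair of these members.

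Zbtb7c, a BTB zinc finger gene on chromosome 18, held an intron member with 2542, 2090, 2545 and 2156 scaled reads in ESC and 2, 7 and 6 in myoblasts of cultures 21, 27 and 26. Its day 4 myotubes were at 1, 105 and 22, so culture 27 stood apart. At the Nwd1 start, chr8:75170312-75171662, ESC had 1476, 952, 1203 and 1926, myoblasts 0, 27 and 21, and muscle 18, 34 and 25. In the Gm7027 fragment printed above, ESC had 544, 402, 428 and 417, myoblasts 31, 18 and 26, and muscle 3, 1 and 5. Of the 32 members with a ratio of 16 or more, 9 were in a promoter window, 9 in an intron, 3 in an exon outside such a window and 11 between genes. Chromosome 8 held 8 of the 32, the 3 Nfix members among them. It held 20 of the 157 members and 337 of the 5380 eligible fragments.

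**Figure D2:**
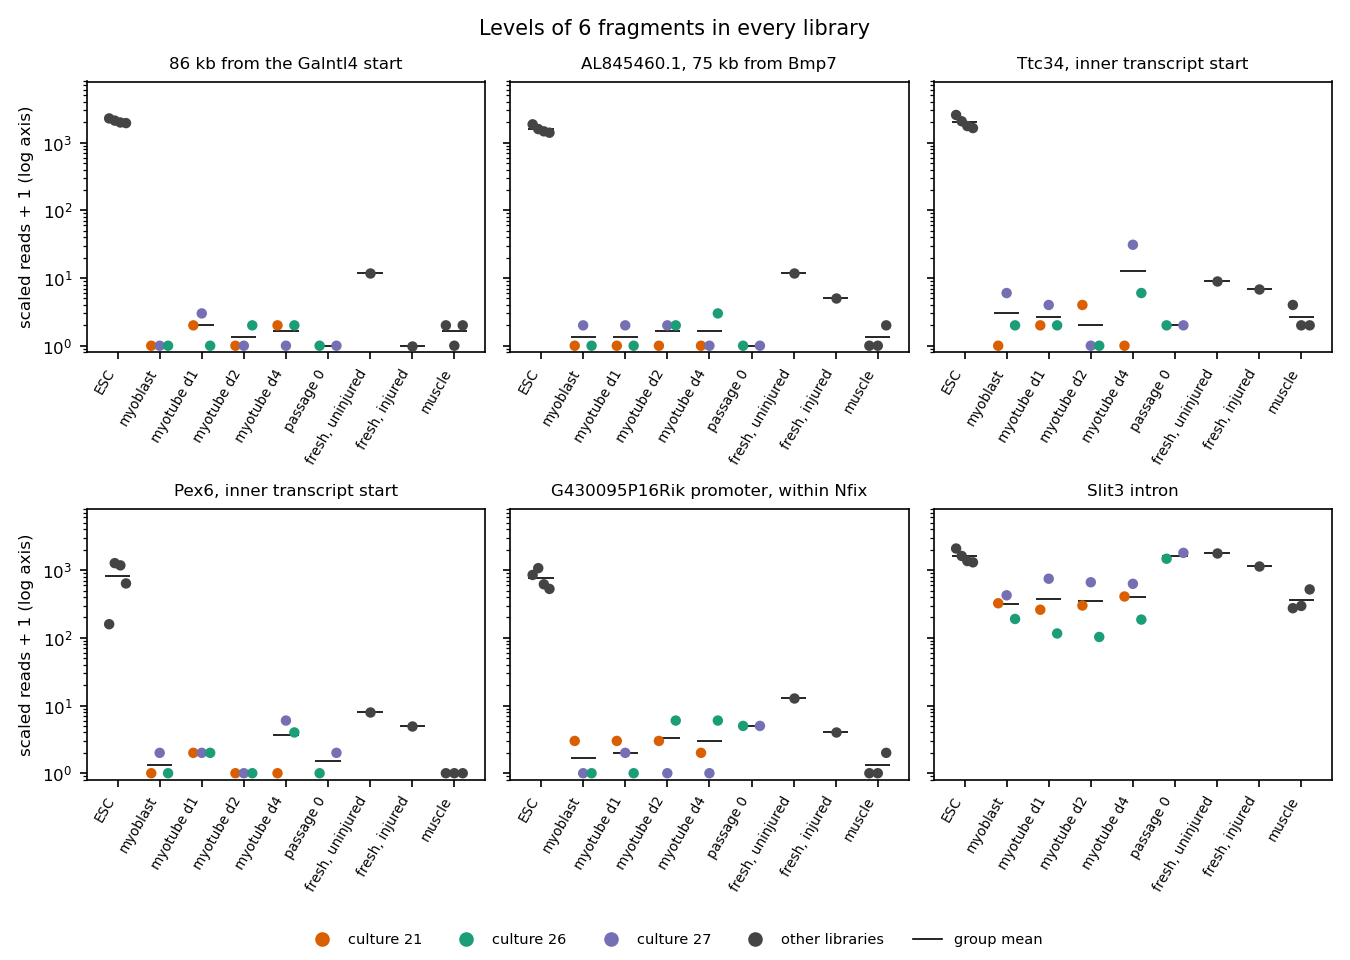
Scaled reads plus 1 on a log axis for 6 members in the 23 libraries, with points coloured by culture and a bar at each group mean. The first 5 members are at 30 or less in every library outside ESC, while Slit3 is at 1140 to 1813 in passage 0 and fresh cells and at 102 to 746 in the passaged cultures.

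Levels in the groups that the rule did not use were next set against ESC. A member was called low in a group when the ESC mean was at least 4 times the group mean plus 1. Since ESC values chose the members and the myotubes come from the myoblast cultures, these counts describe the members and test nothing. In day 1 myotubes 143 of 157 members were low, against 7.58% of eligible fragments. In day 2 myotubes 152 were low against 19.2%, and in day 4 myotubes 121 were low against 6.97%. Passage 0 cells had 141 low members against 23.3%. Of the never cultured libraries, the uninjured had 116 low members against 10.7% of eligible fragments, and the injured 68 against 4.29%. Low levels were thus present in most members in the uninjured library, and in fewer than that in the injured one. The median of the length bin was also subtracted, a step chosen after seeing the data. Then 77 members were low in day 1 (2.55% of eligible fragments), 110 in day 2 (10.6%) and 67 in day 4 (2.75%). Passage 0 cells had 117 (14.4%), the uninjured library 73 (4.52%) and the injured one 58 (3.16%). The 2 fresh libraries have no replicate, and their difference was not tested. A second description asked for every library of a group to lie below the lowest ESC library. This held for 134 members in day 1 myotubes (24% of eligible fragments), 149 in day 2 (33.4%), 128 in day 4 (27.2%) and 144 at passage 0 (41.3%). It held for 143 members in the uninjured (50.1%) and 135 in the injured fresh library (39.6%).

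Fewer members were low in the passaged libraries of culture 27 than in those of the other cultures. In its own libraries 84 members were low in myoblasts (7.17% of eligible fragments), 71 in day 1 myotubes (4.09%), 131 in day 2 (23.2%) and 62 in day 4 (2.1%). In culture 21 the counts were 151 (29.1%), 147 (27.7%), 150 (29.4%) and 151 (38.6%). Culture 26 had 145 (20.7%), 154 (26.5%), 150 (24.7%) and 146 (19.9%). At passage 0, where culture 27 had 148 low members (32.3%) and culture 26 had 130 (18%), the order was the other way round. The muscle libraries, which the rule used, had 150 (21.8%), 149 (23.5%) and 115 (10.4%), the last in C57BL/6J. The lower member counts stood in libraries where fewer eligible fragments were low as well, and the part of the library in them was not tested.

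Members with a larger ratio were more often low in all 6 groups outside the rule, which is partly built in. The ratio and the calls of low share the ESC mean, and the myotubes come from the myoblast cultures. All 32 members with a ratio of 16 or more were low in each of the 6 groups, as were 7 of 13 with a ratio of 8 to 16, 5 of 18 with 6 to 8 and 14 of 94 with 4 to 6. In total 58 members were low in all 6, and the same count was not made for eligible fragments. The median member level was 21.3 scaled reads in day 1 myotubes, 12 in day 2, 27.7 in day 4, 13.5 at passage 0, 23 in the uninjured fresh library and 43 in the injured one.

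**Figure D3:**
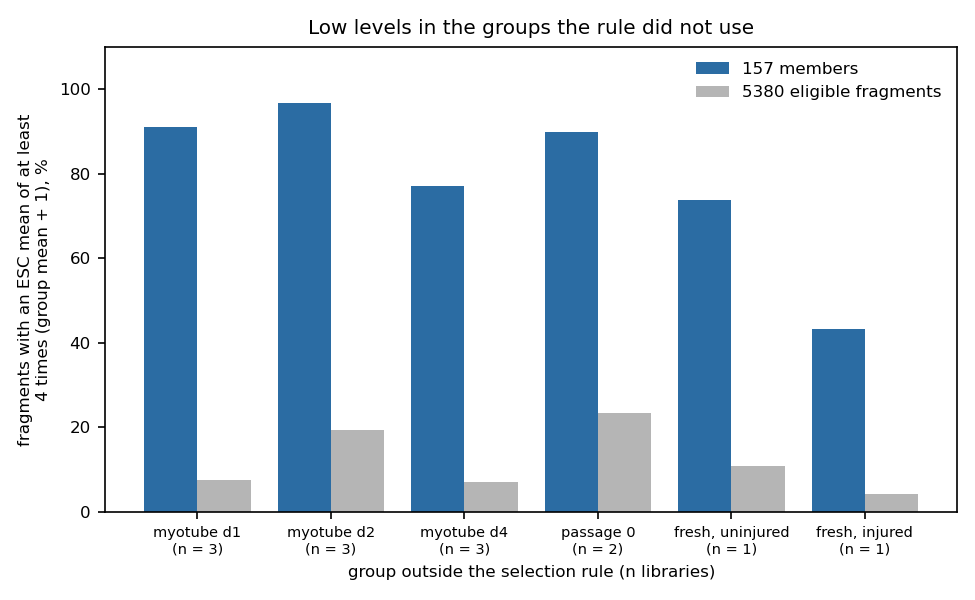
Bars give the percentage of the 157 members (blue) and of the 5380 eligible fragments (grey) whose ESC mean was at least 4 times the group mean plus 1, for the 6 groups outside the rule with their number of libraries. Members range from 43.3% in the injured fresh library to 96.8% in day 2 myotubes, and eligible fragments from 4.29% to 23.3%.

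Some members kept a high level in cells that had not been passaged. Slit3 encodes a secreted ligand of Robo receptors, and its intron member had 2086, 1618, 1361 and 1303 scaled reads in ESC. It stood at 1474 and 1798 in passage 0 cells of cultures 26 and 27, at 1813 in the uninjured and at 1140 in the injured fresh library. At passage 8 to 10 the same cultures had 189 and 424, and culture 21 had 323. Myotubes of the 3 cultures ranged from 102 to 746 and muscle from 273 to 518. The passage 0 and fresh libraries thus lay above all passaged and muscle libraries. The change from passage 0 cells to day 4 myotubes was -1.84 on the log2 scale (SE 0.85) and did not pass the test across all fragments (edgeR quasi-likelihood, adjusted p = 0.732).

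Other members with a high passage 0 level relative to ESC had lower counts. In an intron of Cdh23, a cadherin of hair cell tip links, the 145 bp member had 42, 21, 71 and 22 scaled reads in ESC, 23 and 17 at passage 0, and 2 to 21 in the passaged cultures. The one nearest to Matn1 (96.9 kb) had 312 and 130 at passage 0 of cultures 26 and 27, against 382 to 679 in ESC and 32 to 189 in the passaged cultures. For the one nearest to Dynlrb2 (316.4 kb), passage 0 stood at 35 and 40, the fresh libraries at 47 and 63, and ESC at 64 to 111. In each of these 3 members, at least 1 passage 0 library lay within the range of the passaged cultures. Among never cultured cells, an exon member in the collagen IX gene Col9a3 had 74 and 124 against 11 to 247 in ESC. The other, near CK137956, had 51 and 141 against 119 to 210.

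Day 4 myotubes of culture 27 had the highest levels of several members. In the laminin chain gene Lama5, an exon member had 31, 667, 837 and 1007 scaled reads in ESC and 4, 335 and 1117 in day 4 myotubes of cultures 21, 26 and 27. In an intron of the exchange factor gene Cyth1, ESC had 13, 31, 83 and 154, and day 4 myotubes had 1, 64 and 177. The members near Aldh1a2 and Cacna1a had 285 and 277 in day 4 myotubes of culture 27, and 4 and 3 in culture 21. In each of these 4 members culture 27 was the highest of the cultures at day 4. Across the 157, 20 members (12.7%) had day 4 culture 27 at 2 or more times the next highest culture library, against 1.10% of eligible fragments. The culture libraries include the myoblasts, whose mean the rule required to be low, so the difference between 12.7% and 1.10% is partly built in. The median GC content of the 20 members was 53.9%, against 48.9% for all members. Libraries differed by GC content. The first CGR8 library, day 2 myotubes of culture 27 and day 4 myotubes of culture 21 differed from ESC in the 1076 most GC-rich eligible fragments, relative to the rest, by -0.51, -0.82 and -0.96 on the log2 scale. Day 4 myotubes of cultures 27 and 26 were higher in them by 0.22 and 0.19, less than muscle 2 (0.76), the uninjured fresh library (0.53) and myoblasts of culture 26 (0.53). The part of GC content in these member levels was not tested.

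Tests were run on 4 comparisons that share no library with the rule. The one of never cultured precursors used the mean of the uninjured and injured libraries, 1 each. Its p-values therefore hold no spread between fresh samples. In all 4, edgeR's quasi-likelihood test with Benjamini-Hochberg adjustment called 0 of 157 members and 0 of 38575 fragments tested (0%). This fit did not pair libraries by culture. With culture as a block in fits of the compared groups alone, 0 members and 0 fragments were called in the comparisons without fresh cells. Between day 4 and day 1 myotubes, 827 of 22151 fragments then had an unadjusted edgeR p under 0.05, against 33 without the block. All 157 members passed the low-count filter, which was run over all libraries, ESC included. With only the compared groups in the filter and fit, 113, 111, 116 and 119 members passed, in the order of the comparisons below, and 0 were called. The others fell under the filter in the compared libraries, and the count of 0 says nothing of them. At an unadjusted p under 0.05, 6 members and 954 fragments differed between day 4 and day 1 myotubes. The same count was 5 and 721 for day 2 against day 1, 18 and 2612 for day 4 myotubes against passage 0 cells, and 4 and 1108 for never cultured precursors against passage 0 cells. With no low-count filter edgeR called 9 members, all in day 4 myotubes against passage 0 cells. In that comparison it called 1425 of 151888 fragments. DESeq2 with Benjamini-Hochberg adjustment called 0, 0, 1 and 0 members and 0, 0, 19 and 6 fragments in the same order. A missed threshold does not show that the members held the same level. In counts simulated for day 4 against day 1 myotubes on 36494 fragments, 28 of 100 changes of 8-fold and 81 of 100 of 32-fold were recovered. The changes were put only in fragments above a minimum mean count in these myotubes. Each library was drawn independently, with no culture shared between days. The recovery is thus not that of members with few reads.

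The medians over members, which include those with few reads, moved with single libraries. Between day 4 and day 1 myotubes the median member difference was 0.08 on the log2 scale, beside 0.07 over all fragments, and 88 of 157 members were higher. Between day 2 and day 1 it was -0.27 beside -0.06. Day 4 myotubes against passage 0 cells gave 0.81 beside 0.14, and fresh against passage 0 cells gave 0.94 beside 0.05. Without day 4 culture 27 the first of these medians was -0.61 and the third was 0. Without day 1 culture 27 the first was 1.29 and the second 0.44. Without passage 0 culture 26 the third was 1.52 and the fourth 1.50. Culture 21 has no passage 0 library, so in the third comparison culture and stage are not balanced. The single DESeq2 call was the Frmd5 fragment, described next, whose day 4 reads came from culture 21 alone. With no low-count filter, the edgeR calls in the third comparison included Frmd5, Fbn1 and Gm355. These members were high in culture 21 and at 0 or 1 in cultures 26 and 27. The other members called there did not have this pattern. Between day 4 and day 1 myotubes the smallest p among members was 0.0128 for Zbtb7c (edgeR, log2 difference 2.68, SE 0.97, adjusted p = 1). For day 2 against day 1 it was 0.0219 for Smad6 (edgeR, adjusted p = 1), and for day 4 against passage 0 it was 0.00366 for Kcnip3 (adjusted p = 0.728). For fresh against passage 0 cells the smallest was that of AL845460.1 (log2 difference 6.19), which was not called. This member stood near the floor there, at 11 and 4 scaled reads in the fresh libraries and 0 at passage 0.

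The cultures differed from each other at 14 members, which had 3 or fewer scaled reads in the myoblasts and all 3 myotube stages of one culture and 10 or more in those of another. Passage 0 was not part of this criterion. This criterion was chosen after the values had been seen. It held for 8.92% of members and 2.14% of eligible fragments. The criterion uses the myoblast libraries, whose mean the rule required to be low, so the difference between these shares is partly built in. Of the 14, 9 were low in culture 21, 5 in culture 27 and 3 in culture 26. Frmd5, a FERM domain gene, has a member at the start of an inner transcript, chr2:121380666-121380992. Its ESC libraries had 1301, 1071, 856 and 816. In culture 21 it had 242 scaled reads in myoblasts and 188, 269 and 299 in day 1, 2 and 4 myotubes. Cultures 26 and 27 were at 0 or 1 at every stage and at 0 at passage 0. The C57BL/6J muscle had 345 and both mixed-background muscles 0.

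The same pattern stood in an exon member of Fbn1, the gene of the microfibril protein fibrillin-1, and in a member near Gm355. Fbn1 had 147 to 206 in ESC, 114 to 138 in culture 21, 0 or 1 in cultures 26 and 27, and 70 in C57BL/6J muscle against 0 and 0 in the mixed-background muscles. Near Gm355 the values were 87 to 137 in ESC, 20 to 54 in culture 21, 0 or 1 in the other cultures and 54, 0 and 0 in the muscles. The fresh C57BL/6J libraries were at 1 to 9 in these 3 members, near the other cultures and not near C57BL/6J muscle. Among all eligible fragments 10 had culture 21 high and cultures 26 and 27 low, and all 10 also had C57BL/6J muscle high and both mixed-background muscles low. Of these, 8 lay on chromosome 2 between 113.2 and 128.3 Mb, the 3 members among them.

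A second pattern set culture 27 apart. In an intron of Skap1, an adaptor gene of T cells, culture 27 had 0 to 2 scaled reads and cultures 21 and 26 had 20 to 46. C57BL/6J muscle had 62 and the mixed-background muscles 0. Rcan2, a calcineurin regulator, had 0 or 1 in culture 27, 5 to 27 in the passaged libraries of the other cultures, 40 at passage 0 of culture 26, 162 in C57BL/6J muscle and 1 and 0 in the mixed-background muscles. In Ptchd2, culture 26 stood apart with 75 to 89, and 128 at passage 0, while cultures 21 and 27 were at 0 to 4, and the fresh libraries were at 129 and 233. Over all members, 6 (3.82%) had C57BL/6J muscle at 10 or more with both mixed-background muscles at 3 or less, and 1 (0.64%) the reverse. Among eligible fragments the counts were 32 (0.59%) and 2 (0.04%). The rule required a low muscle mean, so the difference between these shares is partly built in. The 3 cultures and the fresh cells carry the same strain label, C57BL/6J, yet culture 21 went with the C57BL/6J muscle in the first pattern while cultures 26 and 27 and the fresh cells did not. The strain labels were not checked, and what the cultures differ in was not tested. Without the 14 members the count is 143.

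**Figure D4:**
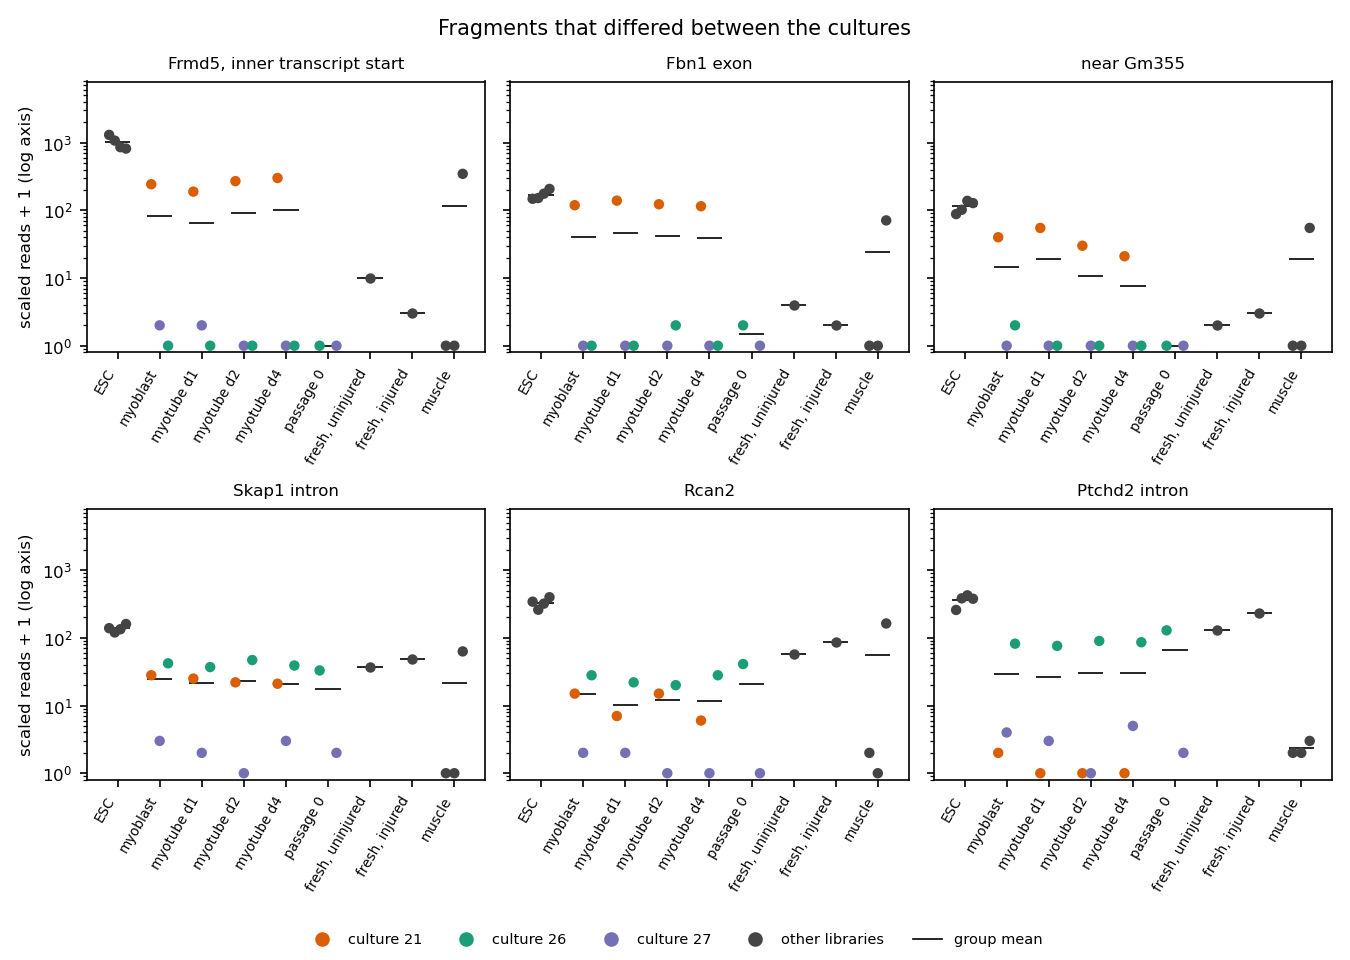
Scaled reads plus 1 on a log axis for 6 members that differed between cultures, in the 23 libraries, with points coloured by culture and bars at group means. In the upper row culture 21 is at 20 to 299 and cultures 26 and 27 are at 0 or 1, and in the lower row culture 27 is at 0 to 4.

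Of the genes in 14 lists of cell type and pathway genes, 4 members lay at a listed gene, among 203 eligible fragments at 529 genes, against 2.92% members among all eligible fragments. None lay at a myogenic regulator (0 of 10 eligible fragments), a contractile gene (0 of 24) or a pluripotency gene (0 of 7). The lists of endothelial, blood cell, neural, adipocyte, HOX, imprinted, germ line and Schwann cell genes also had 0. The 4 were Fbn1 among 29 eligible fragments of fibroblast and matrix genes, Smad6 and Egfr among 34 of growth factor and TGF beta signalling, and Cdh1 among 7 of endoderm and epithelial genes. Counts of this size give no share for a list.

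Cdh1 encodes E-cadherin, the adhesion molecule of epithelial cells, and its member chr8:109173045-109174908 overlaps an exon. It had 149, 155, 243 and 305 scaled reads in ESC, 16, 74 and 35 in myoblasts of cultures 21, 27 and 26, and 22, 42 and 49 in muscle. Myotubes ranged from 12 to 73, passage 0 cells had 46 and 28, and the fresh libraries 53 and 99, so all lay below the lowest ESC value. Smad6, an inhibitor of BMP signalling, has an intron member, chr9:63846136-63847173, with 26, 230, 303 and 176 in ESC and 2, 22 and 16 in myoblasts. Day 4 myotubes of culture 27 had 145, above the first CGR8 library, so Smad6 overlapped between the groups. Egfr, the epidermal growth factor receptor, has an intron member, chr11:16721680-16723568, with 104 to 207 in ESC, 4, 47 and 21 in myoblasts and 6, 6 and 16 in muscle. Its other libraries ranged from 1 to 72. The Fbn1 member, chr2:125141195-125142161, was described above with the cultures.

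Most members lay away from gene starts. A promoter window of 2000 bp upstream to 500 bp downstream of a transcript start held 14 members (8.92%) against 12.8% of eligible fragments. Exons outside such windows held 17 (10.8% against 19.8%), introns 62 (39.5% against 34.4%) and stretches between genes 64 (40.8% against 33.1%). The median distance to the nearest start of a coding gene was 29.2 kb, against 17.6 kb for eligible fragments. At 91 genes there were 93 members. Gm20388, a long annotated locus on chromosome 8, held 4, Nfix 3, and Anxa8, Arhgef3 and Frmd5 held 2 each. Of the 14 in a promoter window 9 had a ratio of 16 or more, which leaves 5 among the other 125 members. The remaining promoter members were at Otog and Ush1c, Zbtb20, Gm14157 in Rspo4, Gm11544 and Gm10600.

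Neighbouring fragments were compared with the members. A neighbour under 2000 bp that shares a site and had 10 or more scaled reads in every ESC library was found 39 times, at 35 members. In 6 cases (15.4%, against 3.34% over eligible fragments) the neighbour also met the 4-fold condition. All 6 came from 5 adjoining members in Nfix and Anxa8, with each pair counted from both sides. The share of members therefore rests on these genes alone. In 22 cases (56.4%) the neighbour's ratio was under 2, against 84.8%. The fragment left of the top member on chromosome 7 ends at its first site, printed above, and had means of 270.8 in ESC, 52 in myoblasts and 67 in muscle, a ratio of 3.98. A read of this neighbour needs methylation at that shared site, and the member itself had 0 or 1 in the same libraries. Right of the Zbtb7c member, the neighbour had means of 752.8 in ESC, 931.7 in myoblasts and 567 in muscle. The neighbour right of the Frmd5 member had 788.3, 637 and 686.3. In both, the neighbour stayed within 2-fold of ESC while the member was low.

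Length differed between members and the rest. The median member measured 1322 bp, against 759 bp over eligible fragments. Members made up 1.77% of eligible fragments of up to 300 bp, 1.10% of those up to 500 bp, 1.38% up to 1000 bp, 3.86% up to 1500 bp and 8.12% over 1500 bp, each bin starting where the last ends. Eligible fragments over 1500 bp were themselves lower than ESC, by a median of -0.57 on the log2 scale in myoblasts and -1.93 in muscle. In the 3 muscle libraries their medians were -2.14, -2.37 and -1.54. When the median of the length bin was subtracted, a step chosen after seeing the data, 59 of 157 members stayed at 4 times or more. Of members over 1500 bp 11 of 64 stayed, and of those of 1000 bp or less 29 of 48. All 32 members with a ratio of 16 or more stayed, but this outcome was fixed in advance. The largest bin median subtracted was the -1.93 in muscle, too small to take a ratio of 16 under 4. The promoter, Nfix and Anxa8 members with large ratios are among these 32, and the 2 list genes Cdh1 and Egfr are over 1500 bp.

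**Figure D5:**
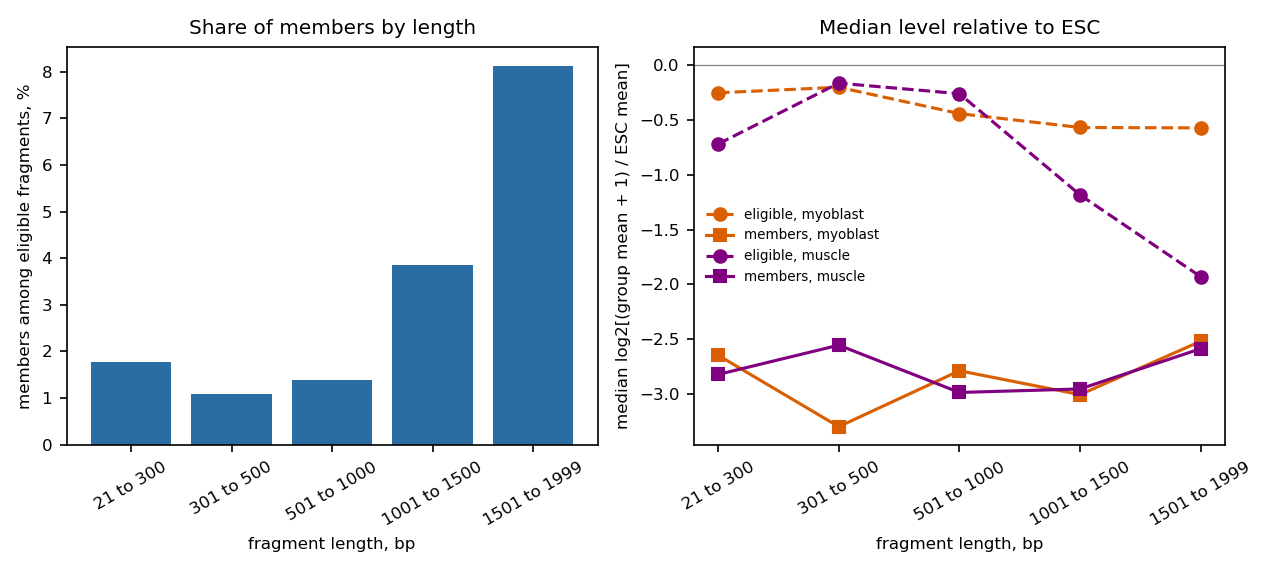
Left, bars give members as a percentage of eligible fragments in 5 length bins, from 1.10% in the bin up to 500 bp to 8.12% over 1500 bp. Right, the median log2 level relative to ESC is shown for members (squares) and eligible fragments (circles) in myoblasts and muscle, and the eligible fragments drop to -1.93 in muscle in the longest bin.

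Base composition and motifs were described without a test. Median GC content was 48.9% in members and 50.0% in eligible fragments, with 1.36 and 1.57 CpG per 100 bp. Motifs were searched on both strands. The E-box CAGCTG, the type bound by MyoD family factors, was in 82 members (52.2% against 38.3% of eligible fragments), at 0.60 per kb in members and 0.65 per kb in eligible fragments. In the longest bin 62.5% of members and 60.3% of eligible fragments held it. The MEF2-type motif, CTA and TAG around any 4 bases, was in 18 members (11.5% against 11.3%), at 0.10 per kb in members and 0.15 per kb in eligible fragments, and the TEAD-type motif ACATTCC in 30 (against 11.4% of eligible fragments), at 0.17 and 0.15 per kb. The AP-1-type motif TGANTCA was in 50 (31.8% against 22.7%), and the octamer core ATGCAAA in 26 (16.6% against 13.3%), at 0.32 and 0.18 per kb in both members and eligible fragments. A match is a description of the letters and not a site of binding.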

How the data were processed

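Per the labels' protocols, libraries were made by AIMS-seq and sequenced on an Illumina GA2. The submitters' processing notes name mm9, Bowtie 0.11.3 and DESeq. The authors deposited raw read counts per fragment, and a scaled table whose values are a depth-corrected score, the count times 1 factor per library. A further 161 per-sample columns in 7 deposited result tables were not used.

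The members and gene lists were chosen with earlier results of these data known. Fragments were placed on GENCODE M1 genes with Python 3.11.15 and pandas 2.3.3. Counts of all 23 libraries were fitted together in R 4.3.3 with edgeR 4.0.16 (quasi-likelihood, TMM, filterByExpr with a minimum count of 10, Benjamini-Hochberg adjusted p under 0.05), and DESeq2 1.42.0 was an alternative. For the fit, CGR8 and its technical replicate were summed to 1 library. The fit was tested on simulated data. The CGR8 technical replicate counted as a library in the rule. Myotube replicate numbers are culture numbers, and same-numbered libraries deviated together (correlations 0.54 to 0.77), so they pair the samples. Named were members at listed genes, the 8 promoter members with the highest ESC mean, the 6 with the largest ratio, those highest relative to ESC in day 4, passage 0 and never cultured cells, and those beside the threshold. Members described for differences between cultures, in adjoining rows or beside neighbours were chosen after their values were seen. Read numbers carry no molecular identifiers.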

Additional observations from a re-analysis of the deposited data

How the results depend on the processing

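The number of members was 331 at a ratio of 3, 45 at a ratio of 8 and 59 after the length adjustment, which was added after seeing the data. Leaving out 1 library at a time gave 122 to 501 members, with 501 without the first CGR8 library. Members low in a group after the length adjustment were 77 in day 1 myotubes (2.55% of eligible fragments), 67 in day 4 myotubes (2.75%) and 73 in uninjured fresh cells (4.52%). A ratio of 2 gave 129 in the injured (19.3%). Leaving out 1 library at a time gave 112 to 153 low members in day 1 (3.83% to 23.6% of eligible fragments) and 141 to 153 in day 2 (17.2% to 24.4%). It gave 84 to 150 in day 4 (3.2% to 22.9%) and 130 to 148 in passage 0 (18% to 32.3%). With no low-count filter, edgeR called 13, 129, 1425 and 22 fragments in day 4 against day 1, day 2 against day 1, day 4 against passage 0 and fresh against passage 0, and 9 members in the third of these. DESeq2 called 19 fragments with 1 member (Frmd5, adjusted p = 0.000528) in the third and 6 fragments in the fourth. Fitting only the groups compared gave 5 fragments in the fourth, where leaving out 1 library gave 0 to 1, the 1 without the injured library. Leaving out 1 library gave 0 calls in the other 3 comparisons. With culture as the replicate block 0 members and 0 fragments were called, and the lowest adjusted p of a member was 0.211, 0.722 and 0.0639 in the first 3 comparisons. The cause was not tested in any of these. In simulated counts for day 4 against day 1 myotubes, 28 of 100 changes of 8-fold were recovered, all placed in fragments above a minimum mean count. The other comparisons were not simulated, and depth was not varied.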
